A study of Mus musculus with 10 samples.

Results

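The replication-dependent histone genes are the clustered genes whose symbols begin with Hist1h to Hist4h. This name pattern picked 69 of the 24972 genes listed, comprising 6 linker histone H1 genes, 19 H2A, 19 H2B, 12 H3 and 13 H4 genes. By symbol, 55 are Hist1 genes on chromosome 13, 10 Hist2 genes on chromosome 3, 3 Hist3 genes on chromosome 11 and 1, Hist4h4, on chromosome 6. Hist1h2al (chromosome 13, 51202727 to 51203065) lies far from the other Hist1 genes, so it is a Hist1 gene by name only. The samples were frozen cortices of perfused male C57BL/6 mice aged 2.5 months, 5 labelled Atad3 nKO and 5 labelled Atad3 control, which were littermates. The libraries were made from total RNA with a stranded kit that depletes ribosomal RNA, so transcripts with and without a poly(A) tail could be read. The labels carry no animal numbers, so p-values measure the spread between these samples. What nKO abbreviates, which driver or deletion made it and which cells lack Atad3 are not stated in the labels. The libraries held 14812639 to 24161361 estimated counts. The targeted gene Atad3a, which encodes a mitochondrial inner membrane ATPase, fell from 23.7 ± 1.85 to 11.5 ± 1.97 CPM (estimated counts scaled to library size with TMM; SD, n = 5 each), with a log2 fold change of -1.04 (SE 0.12, edgeR adjusted p = 0.00634) and no overlap between the groups.

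Core histones H2A, H2B, H3 and H4 form the protein spool of the nucleosome, and H1 binds the DNA that enters and leaves it. The clustered genes are transcribed mainly in S phase, when new DNA has to be packaged. Their messages usually end in a conserved stem-loop instead of a poly(A) tail; the stem-loop is bound by SLBP and processed with the U7 small nuclear RNP. Non-dividing cells such as neurons draw largely on variant histones, such as H3f3a and H3f3b, whose messages are polyadenylated.

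The stem-loop was looked for in the GENCODE vM21 transcripts (GRCm38) of each gene on the transcript strand as 16 bases made of GG, any 2 bases, CTTTT, any base, AG, any 2 bases and CC. It was found in 44 of the 69 genes (63.8%) and in 28 of 21810 other protein-coding genes (0.128%). In 17 genes the annotated transcript had fewer than 20 bases after the coding sequence, or had no annotated coding sequence (Hist1h2al and Hist3h2bb-ps). In 8 others none was found, among them Hist2h3b, which had only 40 bases there. By family, 11 of 13 H4 genes (84.6%), 4 of 6 H1 (66.7%), 8 of 12 H3 (66.7%), 11 of 19 H2A (57.9%) and 10 of 19 H2B genes (52.6%) held it. The commonest form was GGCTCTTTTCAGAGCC, in 26 genes, followed by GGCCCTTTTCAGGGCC in 7 and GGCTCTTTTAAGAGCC in 6. A poly(A) signal (AATAAA or ATTAAA in the last 40 bases of a transcript) was found in 17 of the 69 genes (24.6%) and in 76.2% of the other protein-coding genes. The windows below have 6 flanking bases in lower case and the 16-base stem-loop in capitals. They show how the bases that the pattern left free, in the stem and in the loop, differ between genes whose levels are described below.
Hist1h4c (chr13:23698083-23698110, minus strand): acaaaaGGCCCTTTTCAGGGCCacccac
Hist1h4h (chr13:23531452-23531479, plus strand): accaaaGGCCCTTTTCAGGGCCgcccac
Hist1h4d (chr13:23581944-23581971, plus strand): accaaaGGCCCTTTTCAGGGCCactacc
Hist1h4i (chr13:22040960-22040987, minus strand): cttaaaGGCCCTTTTTAGGGCCaccaca
Hist1h4b (chr13:23757360-23757387, plus strand): acaaaaGGTCCTTTTCAGGACCactcac
Hist1h3e (chr13:23561897-23561924, minus strand): caaaacGGCTCTTTTAAGAGCCacctcc
Hist2h2aa1 (chr3:96246026-96246053, plus strand): taaaaaGGCTCTTTTCAGAGCCacccac
Hist1h2be (chr13:23585525-23585552, minus strand): accaaaGGCTCTTTTCAGAGCCacccaa
Hist1h1e (chr13:23621776-23621803, minus strand): cccaaaGGCTCTTTTCAGAGCCacccac

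The genes also differ in their promoters. Of 61 genes with a RefSeq promoter window (GRCm38.p6), giving 62 windows of 250 bases upstream of the start, 82.3% held CCAAT on either strand, against 33.8% of 32851 windows of all genes. CCAAT was present in every H1, H2A and H2B window, in 80.0% of H3 windows and in 25.0% of H4 windows. TATAAA was found in 46.8% against 12.4% of all windows, and the octamer ATTTGCAT in 22.6% against 1.6%. The octamer occurred in 41.2% of H2A and 41.2% of H2B windows and in none of the H1, H3 and H4 windows. Some H2A and H2B windows overlap on the genome, such as those of Hist1h2aa and Hist1h2ba. With both strands searched, the same match is then counted in both families. Each motif was counted on its own, so matches may overlap, and a match is only a description of the letters. The upstream sequences of 3 abundant genes are shown, with these motifs in capitals on whichever strand they were found: the H4 gene has CCAAT alone, the H2B gene has CCAAT and the octamer, and the H1 gene has CCAAT and TATAAA.
Hist1h4c (chr13:23698459-23698708, minus strand): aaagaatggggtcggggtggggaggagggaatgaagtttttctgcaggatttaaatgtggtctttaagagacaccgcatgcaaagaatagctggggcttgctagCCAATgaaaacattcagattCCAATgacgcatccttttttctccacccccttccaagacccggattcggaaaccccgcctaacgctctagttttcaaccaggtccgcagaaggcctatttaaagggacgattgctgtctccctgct
Hist2h2bb (chr3:96269450-96269699, plus strand): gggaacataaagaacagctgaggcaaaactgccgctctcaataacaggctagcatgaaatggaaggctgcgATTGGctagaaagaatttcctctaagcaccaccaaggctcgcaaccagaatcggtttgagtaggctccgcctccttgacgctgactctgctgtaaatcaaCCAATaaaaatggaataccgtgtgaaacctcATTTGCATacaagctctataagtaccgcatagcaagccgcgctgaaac
Hist1h1e (chr13:23622559-23622808, minus strand): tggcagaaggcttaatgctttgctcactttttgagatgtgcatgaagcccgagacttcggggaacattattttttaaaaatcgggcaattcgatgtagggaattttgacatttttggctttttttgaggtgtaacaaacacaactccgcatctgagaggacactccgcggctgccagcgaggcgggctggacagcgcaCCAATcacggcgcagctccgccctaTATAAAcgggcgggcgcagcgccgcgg

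Of the 69 genes, 31 had enough reads to be tested (5 H1, 3 H2A, 8 H2B, 4 H3 and 11 H4), and these held 95.9% of all histone counts. All 31 had a mean of at least 1 CPM. Another 32 had reads but too few, with means from 0.00518 to 0.762 CPM. The remaining 6 were at 0 in every library: Hist1h2aa, Hist1h2an, Hist1h2ba, Hist1h4n, Hist2h2aa2 and Hist2h3c1. Many copies encode the same protein, including all 13 H4 genes, and the reads of such copies are divided between them by the quantifier. The share of 31-base words of the coding sequence that another member also holds was 77.1% for Hist1h4h and 62.7% for Hist1h4c, and Hist1h4m shared all of its words, but the share was 0.3% for Hist1h1a and 0.7% for Hist4h4, so single-gene values are less certain for the first 3 than for the last 2. Hist2h2aa1 also shares all its words, and its gene and transcript tables differ by up to 417 reads in a library. That is about its whole gene-level count in control 1. Its values are therefore uncertain, and its excess in control 1, given below, rests on the gene-level values alone. Hist1h2bq, Hist1h2br and Hist1h2ao differ between the tables too.

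One control library stood apart before any comparison of genotypes. In control 1 the histone genes summed to 586 CPM, against 150, 166, 176 and 206 CPM in control 2 to control 5. In nKO 1 to nKO 5 the sums were 170, 192, 182, 110 and 163 CPM. Control 1 was therefore 3.36-fold above the mean of the other controls, while nKO 4 was at 0.621 of the mean of the other nKO libraries; the other 8 libraries of the 2 groups overlapped. Of the 31 tested genes, 29 were highest of all 10 libraries in control 1, where 25.6% of all tested genes were, and 23 were at least 2-fold above the mean of the other controls, where 4.33% of all tested genes were. In nKO 4, 25 of the 31 were lowest of all libraries, against 19.7% of all tested genes. Among the 32 genes with too few reads to test, 25 were highest in control 1. The same share over other genes with too few reads was not counted, so this count has no background beside it. Some rest on very few reads, such as Hist1h2af with 1.22 estimated counts, all in control 1. The counts of the comparison between genotypes, and the genes it turns on, are given with and without control 1.

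**Figure D1:**
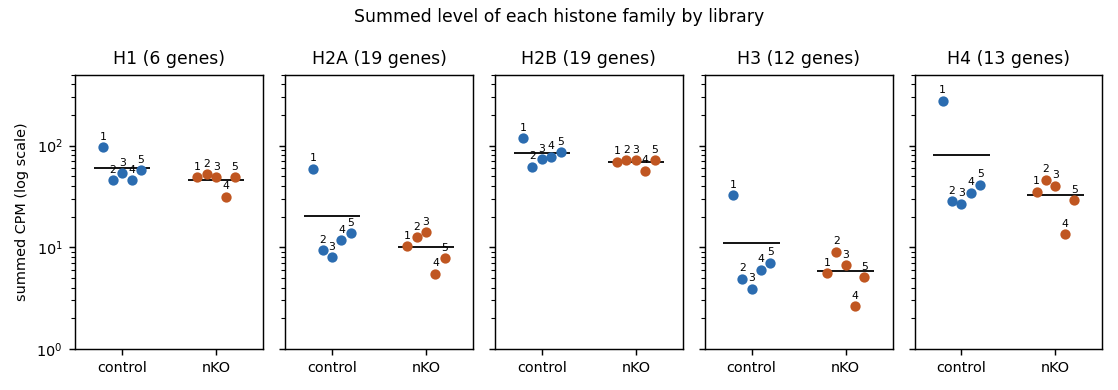
Summed CPM of each histone family (log axis) in the 5 control and 5 nKO libraries; points are libraries with their replicate number, and horizontal lines are group means. Control 1 lies above every other library in each of the 5 families, most in H4 (278 CPM against 26.9 to 41.2 CPM in the other controls), and nKO 4 lies lowest in each.

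Per length of transcript, an H2B gene and an H1 gene stood highest among the histone genes in the other 9 libraries. Levels per length are TPM (transcript abundance scaled by the effective length that Salmon estimates), given as the mean ± SD over those 9 libraries as a description across both genotypes. Hist2h2bb (H2B) stood at 282 ± 46.9 TPM and Hist1h1e (H1) at 213 ± 17.3 TPM. Below them came Hist1h4c (119 ± 35.8 TPM), Hist1h1c (109 ± 24.9 TPM), Hist3h2ba (108 ± 24.7 TPM), Hist1h2bc (99.7 ± 6.10 TPM) and Hist1h4d (94.5 ± 32.6 TPM), neighbours that overlap within 1 SD. Hist3h2a, the highest H2A gene, stood at 83.8 ± 23.4 TPM and Hist1h4h at 74.0 ± 25.8 TPM, and the highest H3 gene, Hist1h3e, at 15.9 ± 8.62 TPM. The order changed in control 1, where 3 H4 genes came first: Hist1h4c at 732 TPM, Hist1h4d at 692 TPM and Hist1h4h at 683 TPM, against 275 TPM for Hist2h2bb and 211 TPM for Hist1h1e. The 13 H4 genes made up 60.4% of the summed histone TPM in control 1 and between 17.8% and 34.3% in the other 9 libraries.

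The H4 genes, whose protein pairs with H3 at the core of the nucleosome, had the highest control 1 ratio of the 5 families by summed CPM. Their sum was 278 CPM in control 1, then 28.2, 26.9, 34.4 and 41.2 CPM in control 2 to control 5, and 35.3, 46.3, 40.4, 13.5 and 29.0 CPM in nKO 1 to nKO 5. Control 1 was 8.50-fold above the mean of the other controls and nKO 4 was at 0.358 of the mean of the other nKO libraries, with the remaining libraries of both groups interleaved. The group means were 81.6 ± 110 and 32.9 ± 12.6 CPM (SD, n = 5 each), but 32.7 ± 6.56 CPM (SD, n = 4) in controls without control 1. By TPM the H4 sum was 3457 in control 1 and 383 to 596 in the other controls.

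Single H4 genes showed the same spread. Hist1h4h (GRCm38 chromosome 13, 23531050 to 23531519) was read at 58.4, 4.95, 3.61, 5.597 and 6.20 CPM in control 1 to control 5 and at 5.24, 8.26, 5.17, 2.10 and 4.48 CPM in nKO 1 to nKO 5. Hist1h4c (chromosome 13, 23697635 to 23698454) was read at 56.4, 7.23, 7.58, 7.99 and 9.13 CPM in controls and at 9.28, 10.3, 10.8, 2.94 and 7.04 CPM in nKO. In both genes control 1 is far above every other library, nKO 4 is lowest, and the others of the 2 groups overlap. The log2 fold changes of nKO over control were -1.63 (SE 0.87) and -1.12 (SE 0.68), with edgeR adjusted p of 0.825 and 0.835, and without control 1 they were -0.0040 (SE 0.30) and 0.02 (SE 0.28). Over the 11 tested H4 genes, the ratio of control 1 to the other controls ran from 3.06 in Hist2h4 to 11.8 in Hist1h4k. Hist1h4h (11.5), Hist1h4b (11.3), Hist1h4a (9.08), Hist1h4d (8.74), Hist1h4m (8.62), Hist1h4i (7.53), Hist1h4c (7.06), Hist1h4f (6.80) and Hist4h4 (6.27) lay between. Hist1h4c, Hist1h4h, Hist1h4d, Hist1h4f and Hist1h4m carry the same stem-loop letters, as does Hist4h4.

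Hist1h4f had the lowest H4 estimate when control 1 was left out, without passing the test. It was read at 13.2, 2.04, 1.76, 1.63 and 2.33 CPM in control 1 to control 5 and at 1.66, 1.33, 1.65, 0.817 and 1.30 CPM in nKO 1 to nKO 5. The nKO libraries lay low but overlapped the lowest control. The estimate was a log2 fold change of -1.62 (SE 0.62, edgeR adjusted p = 0.820), and without control 1 it was -0.54 (SE 0.23, edgeR adjusted p = 0.727). Whether Hist1h4f differs from the other H4 genes was not tested.

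The H3 and H2A sums were also highest in control 1 and lowest in nKO 4. The H3 sum was 32.8, 4.90, 3.92, 6.00 and 7.04 CPM in control 1 to control 5, and 5.52, 9.05, 6.69, 2.64 and 5.09 CPM in nKO 1 to nKO 5, so control 1 was 6.00-fold above the other controls and the rest overlapped. The H2A sum was 59.2, 9.34, 7.96, 11.8 and 13.7 CPM in controls and 10.3, 12.6, 14.2, 5.50 and 7.77 CPM in nKO, 5.54-fold higher in control 1. The size of this H2A excess is uncertain, since by TPM Hist2h2aa1 made up 235 of the 568 TPM of H2A in control 1. Among H3 genes the control 1 ratio was 8.05 for Hist1h3e, 6.00 for Hist1h3i, 4.73 for Hist1h3d and 4.45 for Hist1h3f. Among H2A genes it was 16.3 for Hist2h2aa1 (by its uncertain gene-level values), 2.97 for Hist3h2a and 2.003 for Hist2h2ab. Hist2h2ab was the only tested histone gene whose fold change in all 10 libraries lay above 0 (log2 0.10, SE 0.36, edgeR adjusted p = 0.981), and it lay below 0 when control 3, nKO 2 or nKO 3 was left out.

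The H1 and H2B families had the lowest control 1 ratios by summed CPM. The H1 sum was 97.0, 45.6, 53.7, 45.7 and 57.6 CPM in control 1 to control 5, and 49.0, 52.1, 48.5, 31.4 and 49.3 CPM in nKO 1 to nKO 5, 1.92-fold higher in control 1 than in the other controls. The H2B sum was 119, 62.0, 73.6, 77.7 and 87.0 CPM in controls and 69.5, 72.0, 71.9, 56.7 and 72.1 CPM in nKO, 1.59-fold higher in control 1. The H1 difference depends on the scale: by TPM the H1 sum in control 1 was 459, within the 380 to 506 TPM of the other controls. The effective length that divides the reads was longer in control 1 for these genes, for example 447 bases for Hist1h1c against 183 to 253 bases in the other 9 libraries. In 20 of the 31 tested genes the effective length in control 1 exceeded that in every other library, and by TPM 18 instead of 23 genes were at least 2-fold higher there.

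The control 1 ratios of single H2B genes ran from 0.679 to 8.89. Hist1h2bg was 8.89-fold higher in control 1, Hist1h2be 3.16-fold, Hist1h2bb 2.44-fold, Hist1h2bc 1.92-fold, Hist3h2ba 1.72-fold and the pseudogene Hist3h2bb-ps 1.29-fold. Hist2h2bb (chromosome 3, 96269752 to 96270132) was read at 36.8, 25.7, 33.6, 35.8 and 41.6 CPM in control 1 to control 5 and at 31.8, 29.6, 30.4, 21.3 and 32.3 CPM in nKO 1 to nKO 5, so control 1 lay inside the range of the other controls. Hist2h2be, whose transcript of 2667 bases is the longest of the tested genes, went the other way, with 5.77, 8.21, 8.21, 9.01 and 8.59 CPM in controls and 6.20, 6.31, 8.48, 8.79 and 8.25 CPM in nKO. It was lowest of all 10 libraries in control 1. The GENCODE transcript of Hist2h2be has a poly(A) signal near its end and no stem-loop match. The same holds for the H4 gene Hist1h4a, whose control 1 ratio was 9.08. Whether the transcript end bears on the ratio was not tested.

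**Figure D2:**
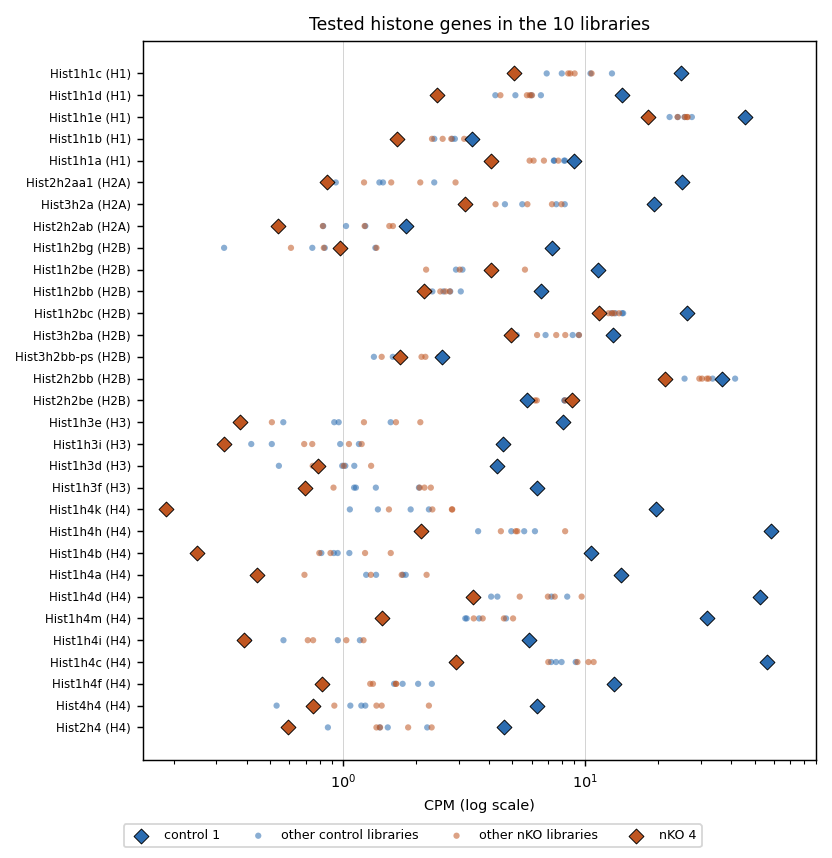
CPM (log axis) of the 31 tested histone genes in each library, grouped by family; diamonds mark control 1 and nKO 4, and circles the other 4 libraries of each group. Control 1 is highest for 29 of the 31 genes, Hist2h2bb and Hist2h2be being the exceptions, and nKO 4 is lowest for 25.

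Among tested genes with several transcripts in the files, the H2B genes Hist1h2bc and Hist1h2be split by transcript length. The short transcript of Hist1h2bc (469 bases) stood at 86.6 TPM in control 1 and between 0 and 12.7 TPM in the other 9 libraries. Its long transcript (728 bases) stood at 84.6 TPM in control 1 and between 87.7 and 109 TPM elsewhere. So the excess of Hist1h2bc in control 1 was assigned to the short form, and the long form was lowest there. For Hist1h2be the short transcript (445 bases) was at 85.4 TPM in control 1 against 4.51 to 29.3 TPM, while both long ones (2480 and 2506 bases) lay between 0.283 and 2.85 TPM in every library. Reads common to both forms are divided by the quantifier, and these values have no test.

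**Figure D3:**
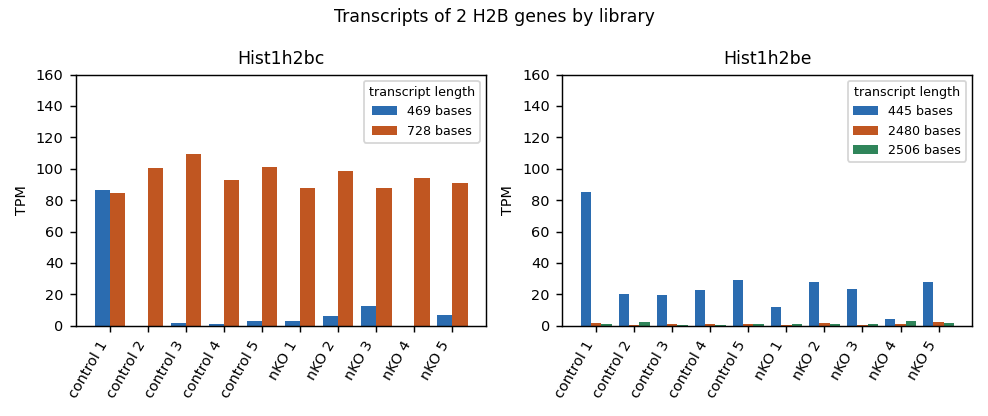
TPM of the transcripts of Hist1h2bc and Hist1h2be in each library, with bars coloured by transcript length. The short form of Hist1h2bc reaches 86.6 TPM in control 1 and at most 12.7 TPM in any other library, while the long form lies between 84.6 and 109 TPM throughout.

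No histone gene passed the test between nKO and control cortex. With all 10 libraries, 0 of the 31 genes passed a 5% false discovery rate in edgeR's quasi-likelihood test, in either direction, where 0.0139% of the 14378 tested genes did; the smallest adjusted p among histone genes was 0.820. At an unadjusted p under 0.05, 2 genes were lower (Hist1h4f and Hist1h1a; 2.29% of all tested genes) and 0 higher (3.36% of all tested genes). DESeq2 also called 0 histone genes at 5% (0.0348% of all tested genes), but its result could be compared for only 22 of the 31. At an unadjusted p under 0.05 it called 2 (Hist1h1a and Hist1h1c, both lower), against 2.82% of all tested genes. In 0 of the 31 genes did the groups not overlap, against 1.38% of all tested genes. In bulk tissue a lower level could be fewer cells of a type or less RNA per cell, which cannot be told apart.

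The direction of the estimates rested on control 1. With all libraries, 30 of the 31 log2 fold changes lay below 0, where 52.2% of all tested genes did, with a median of -0.60 against -0.01 over all genes. The family medians were -1.34 for H4, -0.82 for H3, -0.66 for H2A, -0.40 for H1 and -0.30 for H2B. Without control 1, 16 of the 31 were below 0 and 15 above, with a median of -0.0040, against 50.4% of all tested genes below 0. Without control 1 and nKO 4, 11 were below 0 and 20 above, with a median of 0.12, against 52% of all tested genes below 0. The summed CPM of all histone genes was 0.636 of control with every library, 0.935 without control 1 and 1.01 without both. In edgeR's test 0 histone genes passed 5% without control 1 (0.0138% of all tested genes) or without both (0.0139%). At an unadjusted p under 0.05 there were 2 without control 1, both lower (1.7% of all tested genes), and 0 without both (9.12%).

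The 5 H1 genes are the only family in which each estimate stayed below 0 without control 1, from -0.36 to -0.05. All 5 were lowest of all libraries in nKO 4, and without control 1 and nKO 4 the H1 estimates were 4 below and 1 above 0, with a median of -0.073. Hist1h1a (chromosome 13, 23763666 to 23764406), a linker histone gene with little sequence in common with the other members, was read at 8.99, 7.45, 8.25, 7.42 and 8.18 CPM in control 1 to control 5 and at 5.89, 7.74, 6.75, 4.10 and 6.12 CPM in nKO 1 to nKO 5. All nKO libraries but nKO 2 lay below the lowest control. Its log2 fold change was -0.40 (SE 0.16, edgeR adjusted p = 0.820), -0.36 (SE 0.16, edgeR adjusted p = 0.731) without control 1, and -0.25 (SE 0.13, edgeR adjusted p = 0.562) without control 1 and nKO 4. Hist1h1e, the most abundant H1 gene, was read at 45.5, 24.1, 25.7, 22.3 and 27.6 CPM in controls and at 24.1, 26.5, 26.3, 18.1 and 25.8 CPM in nKO, with a log2 fold change of -0.27 (SE 0.19, edgeR adjusted p = 0.849). Outside control 1 and nKO 4 its groups overlap. Hist1h1c had a log2 fold change of -0.59 (SE 0.33), Hist1h1d -0.55 (SE 0.33) and Hist1h1b -0.25 (SE 0.19), with edgeR adjusted p between 0.825 and 0.860. Without control 1 these were -0.20, -0.17 and -0.20, and without control 1 and nKO 4 they were -0.073, -0.0034 and -0.086.

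The estimate farthest from 0 was that of Hist2h2aa1 (chromosome 3, 96245497 to 96246082), whose excess in control 1 rests on the gene-level values alone. It was read at 25.2, 0.934, 1.46, 1.41 and 2.38 CPM in control 1 to control 5 and at 2.08, 1.22, 2.91, 0.861 and 1.58 CPM in nKO 1 to nKO 5, so that control 1 alone stands above the others. Its estimate was -1.84 on the log2 scale, with an SE of 0.97, a 95% interval from -4.02 to 0.34 and an edgeR adjusted p of 0.820, and 0.15 (SE 0.34) without control 1. Hist1h4a, with a log2 fold change of -1.64 (SE 0.78, edgeR adjusted p = 0.820), ranged from 14.1 CPM in control 1 to 0.441 CPM in nKO 4, with 0.693 to 2.21 CPM in the other 8 libraries. Without control 1 its estimate was -0.26, and without control 1 and nKO 4 it was -0.033. The 95% intervals of the 11 H4 genes reached as far as -3.60, so these data bound a change in single H4 genes only loosely.

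**Figure D4:**
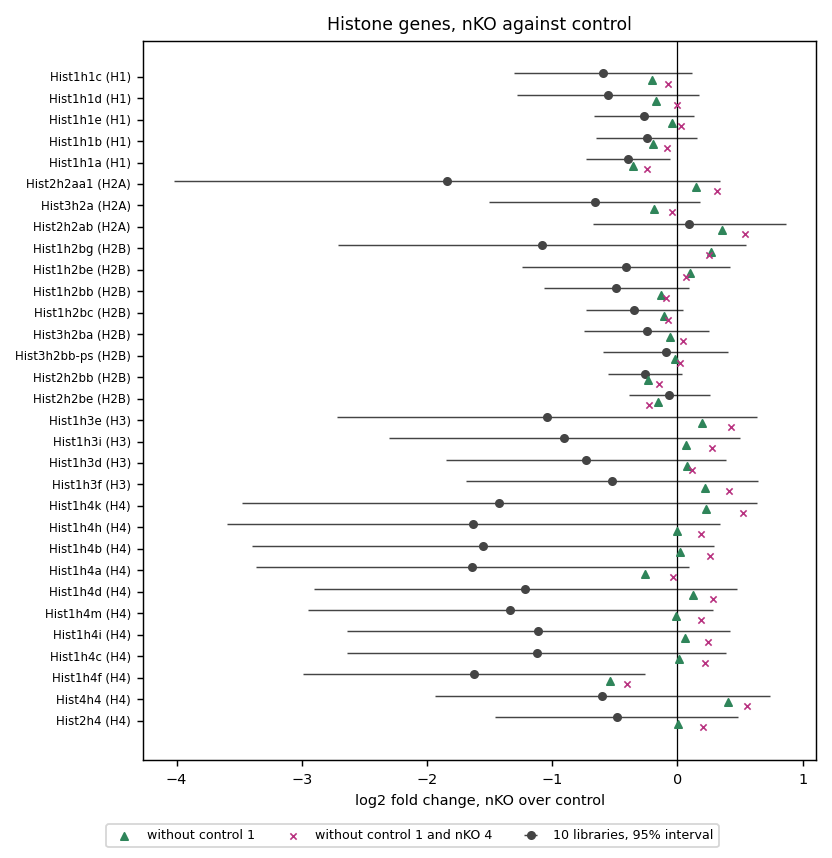
Log2 fold changes of nKO over control for the 31 tested histone genes; circles with bars are estimates with 95% intervals from all 10 libraries, triangles leave out control 1, and crosses leave out control 1 and nKO 4. With all libraries 30 of 31 circles lie left of 0; the triangles lie from -0.54 to 0.40.

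GC-rich genes and single RNAs of other kinds stood high in control 1 along with the histone genes; their part in the result was not tested. GC content was looked at after control 1 had been seen. In the coding sequence, 30 of the 31 tested genes had a GC value (96.8%), with a median of 63.9% against 53.1% in 13613 other tested genes. Across genes, which share these libraries and are not replicates, GC content and the control 1 ratio had a Spearman rho of 0.789 in the 30 histone genes and 0.696 in the other genes, and with the nKO 4 ratio -0.607 and -0.626. Other genes with a coding GC of at least 65% had a median control 1 ratio of 1.40 (n = 335), against 8.62 in the 11 histone genes of that class. Between 60% and 65% the medians were 1.59 in other genes (n = 1334) and 2.97 in 15 histone genes, and between 55% and 60% 1.23 in other genes (n = 3616) and 1.11 in 4 histone genes.

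Length went with the ratio among the histone genes (Spearman rho -0.568, n = 31 genes) but hardly among the other genes (rho -0.057, n = 14347), again as a description across genes. Histone genes under 500 bases had a median control 1 ratio of 7.06 (n = 19), and other genes of that length 1.13 (n = 100). Taking both features together, the 17 histone genes under 500 bases with a coding GC of at least 60% had a median of 7.53, and the 10 other genes of that kind 2.38. From 500 to under 1000 bases at that GC the medians were 2.97 (n = 9) and 1.62 (n = 98). An offset for coding GC in the fit, chosen after seeing the data, left 30 of 31 estimates below 0 (51.5% of all tested genes), with a median of -0.47 and 0 histone genes past 5% (0.0139%). With it 4 histone genes had an unadjusted edgeR p under 0.05, all lower (Hist1h1a, Hist1h1c, Hist1h2bc and Hist1h4f), against 4.03% of all tested genes.

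**Figure D5:**
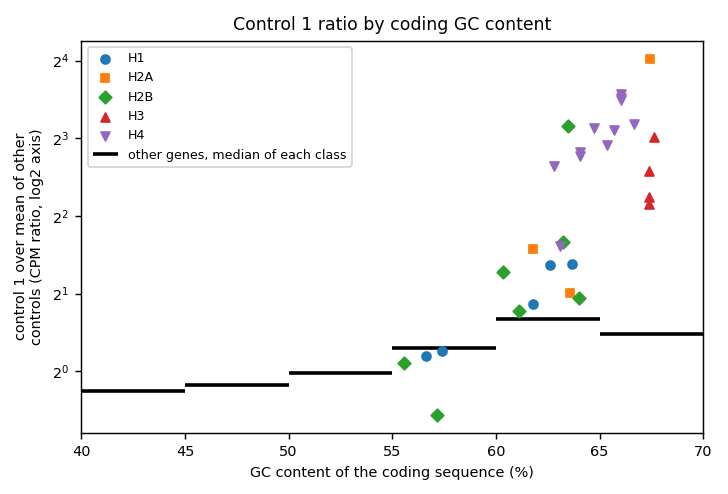
Ratio of control 1 to the mean of the other 4 controls (log2 axis) against GC content of the coding sequence for 30 tested histone genes, by family; horizontal bars are the medians of other tested genes in GC classes, the last of which covers 65% and over. The 11 histone genes at 65% GC or more have a median ratio of 8.62 and the other genes of that class 1.40.

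Of the 20 genes with the highest control 1 ratio among all tested genes, 12 were histone genes. The others included C1qtnf4 (19.7-fold), Pcsk1n (13.8-fold), Prr7 (12.1-fold) and Kcnk12 (8.41-fold). The ribosomal precursor Rn45s led the 20, at 51.3 CPM in control 1 and 0.970 to 4.30 CPM in the other 9 libraries (29.8-fold above the other controls). Rpph1, the RNA of RNase P, was at 4161 CPM in control 1 and 162 to 558 CPM elsewhere (10.1-fold), and Rmrp, the RNA of RNase MRP, at 1715 and 180 to 370 CPM (5.37-fold). Both untailed RNAs were lowest in nKO 4, as was the H4 sum. Rmrp ranked at 30, outside the first 20. Rn45s, Rpph1, Rmrp, C1qtnf4, Pcsk1n, Prr7 and Kcnk12 were named after their values were seen. What the genes high in control 1 have in common was not tested. Of the 6 tested RNAs in the list of RNAs without a poly(A) tail or with a retained nuclear end, Rpph1 and Rmrp were at least 2-fold higher in control 1. The long nuclear RNAs Malat1 (0.945) and Neat1 (1.22) had control 1 ratios near 1. Malat1 was at 12260 ± 985 CPM in controls and 16330 ± 1619 CPM in nKO (SD, n = 5 each; log2 0.41, SE 0.08, edgeR adjusted p = 0.718), with no overlap between the groups, and 0 genes of the list passed 5% in edgeR. Malat1 passed 5% with DESeq2 (adjusted p = 0.0275).

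In control 1 the sum of the S phase genes lay within the range of the other controls, and 5 of the 23 tested members were highest of all 10 libraries there (25.6% of all tested genes were). The summed CPM of the S phase and cell cycle list, 33 of 34 of whose genes are in the files, was 171 in control 1, 156 to 179 in the other controls and 163 to 180 in nKO. The proliferation markers Mki67 and Top2a, named after their values were seen, were at 2.01 and 1.22 CPM in control 1, inside the ranges of the other controls (1.29 to 3.59 and 0.883 to 2.52 CPM). None of the 23 tested members passed 5%, with 13 estimates above and 10 below 0. Cenpf, a kinetochore protein gene, had a log2 fold change of 0.74 (SE 0.31, edgeR adjusted p = 0.820), Cenpe, a kinetochore motor gene, 0.51 (SE 0.22, edgeR adjusted p = 0.820), and Pcna, the replication clamp, -0.05 (SE 0.08, edgeR adjusted p = 0.933).

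The machinery that makes, reads and destroys histone messages showed no called change either. Of 20 tested genes of transcription and end processing, 11 estimates were above and 9 below 0, and 0 passed 5%. The smallest p belonged to Cpsf1 (log2 -0.21, SE 0.11; -0.13 without control 1), a subunit of the cleavage factor, and Pou2f1 (log2 0.15, SE 0.08), which encodes the octamer-binding factor, both with an edgeR adjusted p of 0.820. Cstf2t, the most abundant and a cleavage stimulation factor gene, had -0.10 (SE 0.08, edgeR adjusted p = 0.860). Slbp, which binds the stem-loop and was named after its values were seen, stood at 27.3 CPM in control 1 and at 25.7 to 36.7 CPM in the other libraries. In the translation and decay list, 2 of 10 tested genes were above and 8 below 0, and 0 passed 5%; Upf2, a nonsense-mediated decay factor gene, had a log2 fold change of 0.22 (SE 0.07), Tut1, a terminal uridylyltransferase gene, -0.21 (SE 0.12) and Dcp2, the most abundant and a decapping enzyme gene, -0.03 (SE 0.08). Of 24 tested histone chaperone genes, 13 were above and 11 below 0, and 0 passed 5%; Anp32b had 0.38 (SE 0.14), Ubn2 0.19 (SE 0.08) and Atrx, the most abundant, 0.06 (SE 0.09; 0.0043 without control 1). The edgeR adjusted p of these 6 genes lay between 0.820 and 0.973.

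By TPM, the variant histones held most of the H3 message in all 10 libraries. They held most of the H2A message in 9 of the 10, and the exception, control 1, rests on an uncertain value. H3f3a and H3f3b together stood at 492 TPM in control 1 and at 618 to 708 TPM in the other 9 libraries, so the clustered H3 genes made up 40.2% of all H3 TPM in control 1 and 4.41% to 15.01% elsewhere. For H2A, set beside 6 variant genes, the clustered share was 51.0% in control 1 and 11.5% to 23.95% elsewhere. In control 1 the clustered H2A genes summed to 568 TPM and the variants to 545 TPM. Of the 568 TPM, 235 TPM came from Hist2h2aa1, whose gene-level values are uncertain, so the H2A share in control 1 is uncertain too. For H1, beside H1f0 and H1fx, it was 78.5% in control 1 and 71.2% to 78.0% elsewhere. Of 11 tested variant genes 3 estimates were above and 8 below 0, and 0 passed 5%. H3f3b was at 92.2, 102, 128, 124 and 109 CPM in control 1 to control 5 and at 125, 132, 133, 142 and 142 CPM in nKO 1 to nKO 5, with a log2 fold change of 0.28 (SE 0.09, edgeR adjusted p = 0.820), and the groups overlap. H2afj, an H2A variant gene, had -0.50 (SE 0.19, edgeR adjusted p = 0.820), and -0.26 without control 1. It was at 17.4 CPM in control 1 and at 8.27 to 9.77 CPM in the other controls. H3f3a, the most abundant by CPM, had -0.04 (SE 0.08, edgeR adjusted p = 0.951).

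Neuron and astrocyte markers had the highest sums among the cell type lists, as in cortex. The astrocyte sums did not overlap between the groups, but 8 of the 10 astrocyte estimates lay below 0, and Slc1a2, a glutamate transporter gene with 3716 ± 249 CPM in controls and 4383 ± 369 CPM in nKO (SD, n = 5 each), made up most of the sum. The summed CPM of 14 neuron markers was 6447 to 7934 in controls and 7696 to 8211 in nKO, of 10 astrocyte markers 4851 to 5323 and 5342 to 6236, and of 11 mature oligodendrocyte markers 1606 to 2036 and 1633 to 1965. The 11 oligodendrocyte precursor markers summed to 255 to 287 and 267 to 304 CPM, the 11 microglia markers to 372 to 409 and 360 to 402 CPM, and the 8 endothelial markers to 213 to 267 and 241 to 255 CPM. The 10 neuroblast and progenitor markers summed to 291 to 407 CPM in controls, highest in control 1, and 257 to 327 CPM in nKO, and the 11 blood markers to 23.9 to 73.2 and 15.2 to 45.3 CPM. Every marker was detected in at least 1 library, and 0 of the tested markers passed 5%. The smallest p of each list belonged to Tbr1 (log2 0.57), Slc1a2 (0.24), Mobp (0.15), Bcas1 (0.28), Trem2 (-0.35), Flt1 (0.32), Prox1 (0.34) and Hbb-b2 (-3.96), with edgeR adjusted p of 0.820, or 0.826 for Mobp. Over the alternatives run, the pathway and marker lists had 0 genes past 5% except for Malat1 with DESeq2 and 1 blood marker, Hbb-bt (named after its values were seen), when nKO 1 was left out (edgeR adjusted p = 0.0268). The part of any of these in the histone levels was not tested.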

How the data were processed

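Total RNA of 5 control and 5 nKO cortices was sequenced. Per the submitters' processing notes, bcl2fastq, Salmon, DESeq2 and the build mm10 were used, with versions not given in the sources used here. The authors deposited Salmon tables per gene and per transcript, holding estimated counts, TPM, length and effective length, per the file headers. The deposited TPM values were used as given for levels per length. The deposited estimated counts were rounded for testing, and CPM were scaled with TMM.

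Genes passed edgeR's filter (minimum count 10, minimum total count 15), leaving 14378, and were tested with edgeR 4.0.16 in R 4.3.3 by the robust quasi-likelihood test; p-values were adjusted over all of them by the Benjamini-Hochberg method, at 5%. SEs were derived from the fold change and its F statistic. Libraries of 14812639 to 24161361 counts set the precision. DESeq2 1.42.0, limma 3.58.1 and the other alternatives are in the closing section; the coding GC offset and GC classes were chosen after seeing the data. The test was tried on simulated counts first. The genes named were every histone gene with a mean of at least 1 CPM, Atad3a, the 2 genes of each pathway list with the smallest p and its most abundant gene, and the gene of each marker list with the smallest p, besides those said to be named after their values were seen. The histone genes and lists were chosen with earlier results of these data known. Stem-loops and coding GC came from GENCODE vM21 transcripts and promoters from RefSeq, both of GRCm38, the assembly of mm10.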

Additional observations from a re-analysis of the deposited data

Results flagged for a closer look

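Values were flagged where the highest or lowest library of a group of 5 lay far from the others, measured as its gap to the nearest library divided by the range of the group. For a single group of independent, normally distributed values chance alone flags about 1 in 20. The groups here share the same libraries, and the sums repeat their member genes. They are not independent, so the count of flags cannot be set against that rate. Of 74 groups tested, 31 were flagged, of which 27 had control 1 as the highest library, 1 had control 1 as the lowest and 3 had nKO 4 as the lowest.

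Control 1 was highest in the summed CPM of all histone genes (0.871) and of the H1 (0.767), H2A (0.888), H3 (0.892) and H4 families (0.943). Among H4 genes the values were 0.956 for Hist1h4a, 0.975 for Hist1h4b, 0.961 for Hist1h4c, 0.911 for Hist1h4d, 0.939 for Hist1h4f, 0.953 for Hist1h4h, 0.859 for Hist1h4i, 0.936 for Hist1h4k, 0.947 for Hist1h4m and 0.878 for Hist4h4. Among H3 genes they were 0.85 for Hist1h3d, 0.866 for Hist1h3e, 0.817 for Hist1h3f and 0.821 for Hist1h3i. Among H2A and H2B genes they were 0.94 for Hist2h2aa1, 0.755 for Hist3h2a, 0.828 for Hist1h2bb, 0.889 for Hist1h2bc, 0.857 for Hist1h2be and 0.851 for Hist1h2bg. For the H1 genes Hist1h1d and Hist1h1e they were 0.768 and 0.774.

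Control 1 was lowest for Hist2h2be (0.753). In the nKO group, nKO 4 was lowest in the summed CPM of the H1 (0.827) and H2B families (0.829) and for Hist2h2bb (0.752).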

How the results depend on the processing

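Under every alternative run, 0 histone genes passed 5%, and Atad3a stayed below 0 and past 5%. With the DESeq2 test only 22 of the 31 histone genes could be compared. The count of histone genes lower at an unadjusted p under 0.05, 2 with all libraries, was 1 with limma-voom, 6 with no count filter, 4 with an effective length offset, 4 with a coding GC offset, 1 with same-protein genes summed, 0 without control replicate 1 and nKO replicate 4, and 1 to 7 when single libraries were left out (7 without control 2, 4 without control 4 and 1 without nKO 4). Among all tested genes the share lower at that edgeR p was 2.29% with all libraries, 1.7% without control 1 and 4.03% with the coding GC offset. Without control 1 and nKO 4 it was 9.12%, counting both directions. For the remaining settings here the share is not given, so their counts have no background beside them and are not read as results. The count of estimates below 0, 30 of 31, was 55 of 63 with no count filter, 18 of 19 with same-protein genes summed, 11 of 31 without control 1 and nKO 4, and 16 to 32 when single libraries were left out, some of which let more histone genes pass the filter (16 without control 1). The number of genes whose groups do not overlap, 0, was 1 with the length offset (Hist1h1a), 1 with the GC offset (Hist1h4f) and 0 to 1 when single libraries were left out. With all libraries 1.38% of all tested genes had groups without overlap. That share is not given for the alternatives, so these counts have no background beside them. The median log2 fold change, -0.60, was -0.96 with no count filter (63 genes) and 0.12 without control 1 and nKO 4, and ran from -0.81 to -0.0040 when single libraries were left out. The summed H4 level, a log2 ratio of -1.31, was 0.20 without control 1 and nKO 4 and ran from -1.53 to 0.011 when single libraries were left out.

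Single genes changed sign only when libraries were left out. For each such gene, the log2 fold changes over the settings that leave out 1 library, and then the value without both control 1 and nKO 4, were Hist1h1e -0.35 to -0.047 and 0.032, Hist1h2be -0.58 to 0.10 and 0.066, Hist1h2bg -1.36 to 0.27 and 0.26, Hist1h3d -0.97 to 0.073 and 0.12, Hist1h3e -1.37 to 0.20 and 0.43, Hist1h3f -0.72 to 0.22 and 0.41, Hist1h3i -1.17 to 0.070 and 0.28, Hist1h4b -1.83 to 0.018 and 0.26, Hist1h4c -1.32 to 0.015 and 0.22, Hist1h4d -1.46 to 0.13 and 0.28, Hist1h4h -1.89 to -0.0040 and 0.19, Hist1h4i -1.36 to 0.059 and 0.24, Hist1h4k -1.68 to 0.22 and 0.53, Hist1h4m -1.56 to -0.013 and 0.19, Hist2h2aa1 -2.12 to 0.15 and 0.32, Hist2h2ab -0.098 to 0.36 and 0.54, Hist2h4 -0.71 to 0.0026 and 0.21, Hist3h2ba -0.38 to -0.056 and 0.048, Hist3h2bb-ps -0.21 to -0.00072 and 0.022, Hist4h4 -0.88 to 0.40 and 0.55. In the other settings no named log2 fold change of a histone gene changed sign. Beyond the alternatives that leave out samples, the cause was not tested. No paired analysis was possible because the labels give no shared litter, animal or batch numbers that tie control to nKO libraries.

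Low counts limit the H3 and H2A genes in particular, since 32 histone genes with reads were too rare to test. Copies that share sequence share reads, and the gene-level values of such copies are estimates.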
